A study of Mus musculus with 39 samples.

Results

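Sox9, Sox8, Wt1, Dmrt1, Gata4, Gata1 and Nr0b1 encode transcription factors that set up or maintain the identity of Sertoli cells, the somatic cells of the seminiferous tubule that nurse the germ cells. They were taken as a list of symbols, and each was read from the probe set annotated with that symbol alone. They are 7 of the 22180 genes with such a probe set, and each has 1. All 7 were among the 19007 genes tested, which are those with a mean in at least 1 of the 8 groups above 4.62, the 25th percentile of all log2 intensities. RNA of whole mouse testis was hybridised to Affymetrix arrays, 1 array per animal, and the values are log2 intensities normalised by RMA. In 3 lines a Cre transgene was combined with floxed alleles of Prkar1a (Prkar1a fl/fl): Sf1:Cre in prKO, Amh:Cre in srKO and Cyp11a1:Cre in lrKO. At 2 months 3 prKO, 4 srKO, 4 lrKO and 8 wild-type (WT) mice were measured, and at 2 weeks 4 prKO, 4 srKO, 4 lrKO and 8 WT mice. The WT mice are described as littermates; whether they carried floxed alleles or Cre is not given in the sources used here. Prkar1a encodes a regulatory subunit that holds protein kinase A (PKA), the cAMP-dependent kinase, inactive. The Sf1 driver is used by precursor cells of the adrenal cortex and the gonad, so Sf1:Cre reaches several somatic cell types of the testis. The Amh driver is that of Sertoli cells, and the Cyp11a1 driver that of cells making steroids, such as Leydig cells. Cells that a driver does not reach keep their Prkar1a. The label on RNA extraction names adrenal glands, whereas the other labels name testis.

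As background, the Y-linked factor SRY switches on Sox9 in the fetal gonad, with WT1, GATA4 and NR5A1 acting upstream and beside it. SOX9 and its relative SOX8 then keep the Sertoli programme running, and DMRT1 keeps Sertoli cells of the postnatal testis from taking on features of ovarian granulosa cells. In the testis Wt1 and Sox9 are markers of Sertoli cells, whereas Gata4 and Nr0b1 are also used in Leydig cells, Nr0b1 in the adrenal cortex, Dmrt1 in spermatogonia and Gata1 in red cell precursors, mast cells and megakaryocytes. In bulk RNA, fewer cells of a type and less RNA per cell cannot be told apart.

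The median log2 intensity of single arrays was 5.81 to 5.96 at 2 months and 5.96 to 6.02 at 2 weeks. The targeted gene, Prkar1a, was lower than in WT in prKO at 2 months (log2 difference -0.30 ± 0.09, SE, limma adjusted p = 0.0078) and at 2 weeks (-0.78 ± 0.07, adjusted p = 4.5e-07). In srKO it was lower at 2 weeks (-0.48 ± 0.07, adjusted p = 0.0022) but higher at 2 months (0.24 ± 0.08, adjusted p = 0.03). The WT arrays of 2 months were themselves split in Prkar1a, with replicates 1 to 4 at 8.61 to 8.81 and replicates 5 to 8 at 8.95 or above. The prKO arrays of that age (8.36 to 8.66) overlapped replicates 1 to 4, and 1 of 3 lay below all WT arrays. The srKO arrays (8.98 to 9.18) overlapped replicates 5 to 8, and 3 of 4 lay above all WT arrays. Arrays labelled lrKO did not pass the threshold for Prkar1a at 2 months (0.04, adjusted p = 0.94) or at 2 weeks (0.05, adjusted p = 0.84). The lrKO groups and srKO at 2 months are therefore named by their labels, without a check from Prkar1a. The prKO replicate 1 at 2 months stood apart: Adam7, a gene of the epididymis, was at 11.70 there and at 4.25 and 4.47 in the other 2 prKO arrays. Adam7 was above 6 on 3 further arrays, at 6.40 in lrKO replicate 4 and 6.11 in WT replicate 4 at 2 months, and at 7.08 in prKO replicate 3 at 2 weeks. The differences of the 7 factors from WT in prKO at 2 months, and the counts of the marker lists there, are therefore given with and without its replicate 1. Without it Prkar1a differed by -0.35 (adjusted p = 0.007). In WT replicate 4 at 2 weeks the mean of 6 peritubular myoid genes was 10.41, against 8.76 to 9.12 in the other 7 WT arrays of that age.

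All 7 factors were lower at 2 months than at 2 weeks in WT testis, and the fold differed between them. The log2 difference was -2.07 ± 0.09 for Dmrt1 (SE, 4.21-fold lower, limma adjusted p = 2.6e-22), -1.87 ± 0.10 for Sox9 (3.66-fold lower, adjusted p = 3.9e-19), -1.50 ± 0.08 for Nr0b1 and -1.49 ± 0.08 for Wt1. It was -1.36 for Gata4, -1.13 for Gata1 and -1.06 for Sox8. The 7 members called lower stand against 55% of all 19007 genes that were called lower with age, and their median difference of -1.49 against -0.24 over all genes. In each of the 7 genes, the values of all 4 groups at 2 months lay below those of all 4 groups at 2 weeks, with no overlap of any array. With each array centred on its own median the WT differences were -1.96 to -0.95, so all 7 kept their direction and stayed past the threshold. Over the same interval 20 of 23 tested Sertoli cell product genes also fell (median -1.58), and spermatid genes such as protamines, which are made by cells absent from the immature tubule, rose in 12 of 13 (median 5.40), where 26.7% of all genes were called higher with age.

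**Figure D1:**
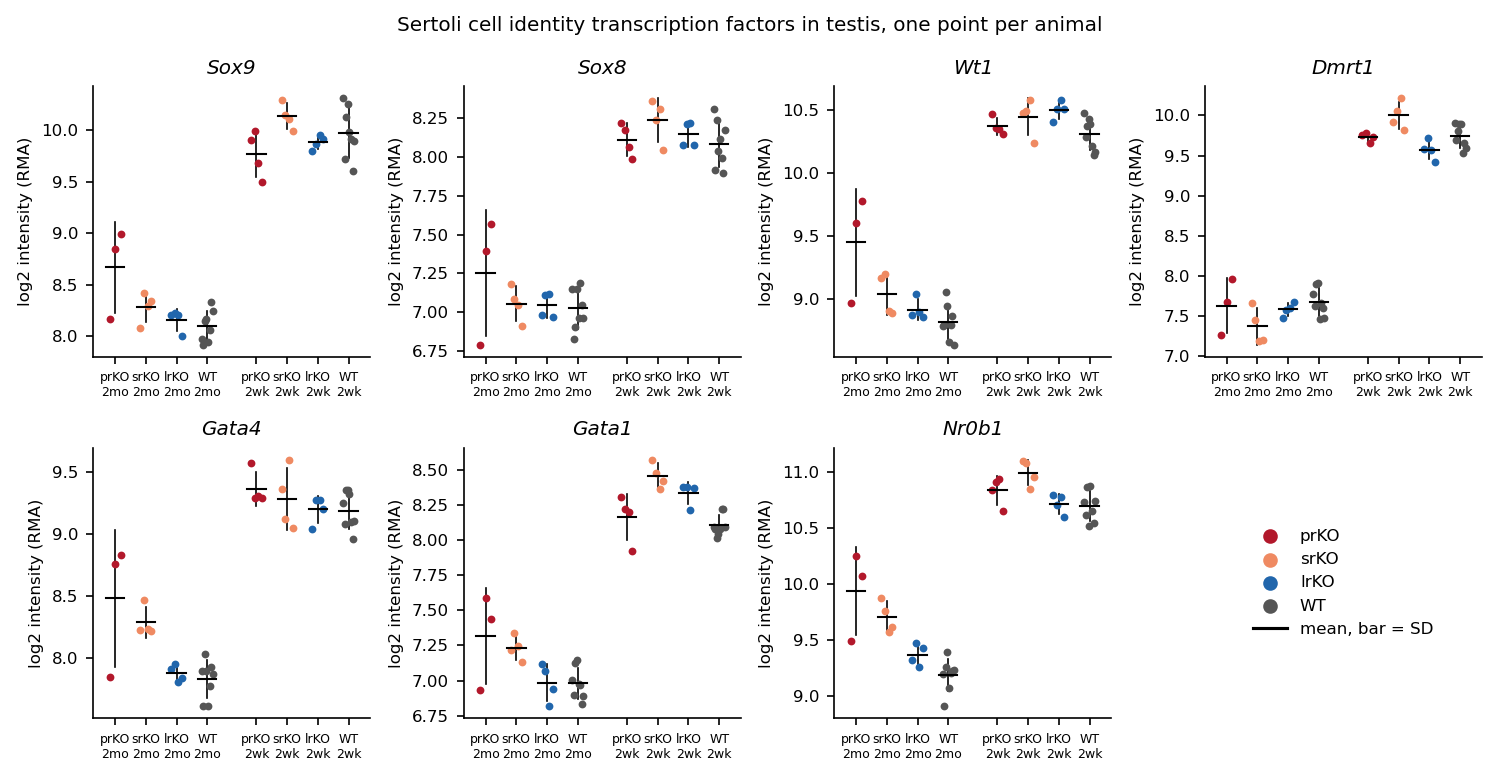
RMA log2 intensity (y axis) of each of the 7 factors by group (x axis, 2 months left of 2 weeks), 1 point per animal, with the group mean as a line and the SD as a bar. Each panel has its own scale, so levels are not compared between genes; in every panel the groups at 2 months lie below those at 2 weeks, and prKO has the widest spread at 2 months.

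Sox9, the factor that defines the Sertoli lineage, had log2 intensities of 8.17, 8.84 and 8.99 in prKO at 2 months, 8.08, 8.42, 8.29 and 8.35 in srKO, and 8.21, 8.23, 8.20 and 8.00 in lrKO. WT testes of that age ran from 7.92 to 8.33 with a median of 8.10. Of the 3 prKO arrays 2 lay above every WT array, and replicate 1 lay within the WT range, as did all 4 lrKO arrays and 2 of 4 srKO arrays. Sox9 was higher in prKO by 0.57 ± 0.13 (SE, 1.48-fold, limma adjusted p = 0.0014), and by 0.82 without replicate 1. The differences from WT in srKO (0.19, adjusted p = 0.29) and lrKO (0.06, adjusted p = 0.94) did not pass the threshold. At 2 weeks Sox9 was at 9.90, 9.99, 9.68 and 9.50 in prKO, 10.29, 10.14, 10.11 and 9.99 in srKO, 9.80, 9.86, 9.95 and 9.91 in lrKO, and 9.60 to 10.31 in WT (median 9.95). These groups overlapped, and only prKO replicate 4 fell outside the WT range, below it. The prKO difference at 2 weeks was -0.21 (adjusted p = 0.27), opposite in sign to that at 2 months.

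Sox8, a relative of Sox9 that can partly stand in for it, was at 6.79, 7.40 and 7.57 in prKO at 2 months, 7.18, 7.08, 7.04 and 6.91 in srKO, 6.98, 7.11, 7.12 and 6.97 in lrKO, and 6.83 to 7.18 in WT (median 7.00). The prKO values fell on both sides of the WT range, with replicate 1 below it and the others above. The difference of 0.23 ± 0.12 did not pass the threshold (limma adjusted p = 0.13), but without replicate 1 it was 0.46 (adjusted p = 0.00077). In srKO (0.03) and lrKO (0.02) the differences were within the spread of WT. At 2 weeks it was at 7.99 to 8.22 in prKO, 8.04 to 8.36 in srKO, 8.08 to 8.22 in lrKO and 7.90 to 8.31 in WT, and no line passed the threshold.

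Wt1, a zinc finger factor that marks Sertoli cells from the fetal gonad onward, was at 8.97, 9.60 and 9.77 in prKO at 2 months, 9.17, 9.19, 8.90 and 8.89 in srKO, 8.87, 9.04, 8.89 and 8.86 in lrKO, and 8.64 to 9.05 in WT (median 8.80). Again prKO replicates 2 and 3 were above all WT arrays and replicate 1 within their range. It was higher in prKO by 0.63 ± 0.13 (1.55-fold, limma adjusted p = 0.00042), and by 0.87 without replicate 1. The srKO difference of 0.22 (adjusted p = 0.18) and the lrKO difference of 0.10 (adjusted p = 0.89) did not pass. Wt1 at 2 weeks lay between 10.31 and 10.47 in prKO, 10.23 and 10.58 in srKO, 10.41 and 10.58 in lrKO and 10.14 and 10.47 in WT. The largest difference there was 0.19 ± 0.07 in lrKO, with 3 of 4 arrays above all WT arrays, and it did not pass (adjusted p = 0.44).

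Dmrt1, which opposes granulosa features in Sertoli cells and also acts in spermatogonia, was not called in any line at 2 months. It was at 7.26, 7.67 and 7.96 in prKO, 7.66, 7.45, 7.18 and 7.20 in srKO, 7.48, 7.58, 7.60 and 7.67 in lrKO, and 7.46 to 7.91 in WT (median 7.64). In prKO 1 array lay above, 1 within and 1 below the WT range, whereas 3 of 4 srKO arrays lay below it. The prKO difference was -0.05 (95% interval -0.32 to 0.23, limma adjusted p = 0.8), and without replicate 1 it turned to 0.14 (adjusted p = 0.42). The srKO difference was -0.30 ± 0.12 (adjusted p = 0.069). The srKO mean was 7.37, against 7.80 in WT replicates 1 to 4 and 7.55 in WT replicates 5 to 8. Of 16 spermatogonial genes 4 were called higher and 7 lower in prKO (2 and 6 without replicate 1), where 26% of all genes were higher and 22.4% lower, and 1 was lower in srKO, where 10.8% of all genes were. The srKO difference of Dmrt1 passed in some of the alternative fits, and only those are given here. It passed in a fit of all 8 groups (adjusted p = 0.027), after quantile normalisation (-0.34, adjusted p = 0.043) and with array weights (-0.38, adjusted p = 0.0052). It also passed with WT replicates 5 to 8 left out (-0.42, adjusted p = 0.038) and without srKO replicate 1 (-0.40, adjusted p = 0.027). At 2 weeks, in contrast, Dmrt1 was at 9.92, 10.05, 10.21 and 9.82 in srKO, against 9.53 to 9.91 in WT (median 9.75). There 3 of 4 srKO arrays exceeded all WT arrays, and the difference of 0.25 ± 0.08 did not pass (adjusted p = 0.17). The prKO arrays (9.65 to 9.78) lay within the WT range, and of the lrKO arrays (9.43 to 9.71) 1 lay below it.

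The difference of srKO from WT in Dmrt1 itself differed between the ages. The change at 2 months minus that at 2 weeks was -0.55 ± 0.15 (limma adjusted p = 0.0071), and Dmrt1 was the 1 member called lower in this contrast, in which 8.76% of all genes were. It stayed past the threshold when any 1 array was left out. In the same contrast no other member passed; Gata4 had 0.36 (adjusted p = 0.15) and Sox9 0.03 (adjusted p = 0.95). Among spermatogonial genes, which belong to a germ cell type that also contains Dmrt1, 3 of 16 were called lower in this contrast and none higher: Sall4 (-0.61, adjusted p = 0.0019), Sohlh1 (-0.51) and Lin28a (-0.48). At 2 weeks the mean of 14 meiotic prophase genes ran from 8.23 to 9.14 in srKO and from 8.41 to 9.35 in WT. The part of spermatogonia or of meiotic progress in the Dmrt1 result was not tested.

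Gata4, a zinc finger factor of Sertoli and Leydig cells, was at 7.84, 8.76 and 8.83 in prKO at 2 months, 8.22, 8.47, 8.23 and 8.22 in srKO, 7.91, 7.95, 7.80 and 7.84 in lrKO, and 7.61 to 8.03 in WT (median 7.88). All 4 srKO arrays and prKO replicates 2 and 3 were above every WT array. It was higher in prKO by 0.65 ± 0.15 (1.57-fold, limma adjusted p = 0.0012; 0.97 without replicate 1) and in srKO by 0.46 ± 0.13 (1.37-fold, adjusted p = 0.015). The srKO call was lost without srKO replicate 2 (0.40, adjusted p = 0.071) and against WT replicates 1 to 4 alone (0.43, adjusted p = 0.084). In lrKO the difference was 0.05 (adjusted p = 0.96). At 2 weeks Gata4 was at 9.29 to 9.57 in prKO, 9.05 to 9.60 in srKO, 9.04 to 9.27 in lrKO and 8.96 to 9.35 in WT, with overlap between all groups and WT.

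Gata1, which in the mouse testis is found in Sertoli cells and elsewhere drives red cell formation, was at 6.93, 7.59 and 7.44 in prKO at 2 months, 7.22, 7.34, 7.24 and 7.13 in srKO, 7.12, 7.07, 6.82 and 6.94 in lrKO, and 6.83 to 7.15 in WT (median 6.97). It was higher in prKO by 0.34 ± 0.11 (1.27-fold, limma adjusted p = 0.014), and by 0.53 without replicate 1. That call was lost without prKO replicate 2 (0.21, adjusted p = 0.15) or replicate 3 (0.28, adjusted p = 0.088) and against WT replicates 1 to 4 alone (0.28, adjusted p = 0.11). In srKO 3 of 4 arrays lay above all WT arrays, and the difference of 0.25 ± 0.10 did not pass (adjusted p = 0.066). At 2 weeks Gata1 was at 8.57, 8.48, 8.36 and 8.42 in srKO, 8.31, 8.22, 8.20 and 7.93 in prKO, 8.38, 8.38, 8.22 and 8.37 in lrKO, and 8.02 to 8.22 in WT (median 8.09). All 4 srKO arrays were above every WT array, and so were 3 of 4 lrKO and 2 of 4 prKO arrays. The srKO difference was 0.35 ± 0.07 (1.28-fold, adjusted p = 0.017), the lrKO difference 0.23 ± 0.07 (adjusted p = 0.28) and the prKO difference 0.06 (adjusted p = 0.62).

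The Gata1 call in srKO at 2 weeks was lost without srKO replicate 1 (0.31, limma adjusted p = 0.093) or replicate 2 (0.35, adjusted p = 0.085), and against WT replicates 5 to 8 alone (0.30, adjusted p = 0.095). Markers of the blood cells that also use Gata1 are given beside these calls. Of all genes 0.784% were called higher in srKO at 2 weeks, and 26% in prKO and 14.7% in srKO at 2 months. Of 8 red cell genes 3 were tested (Klf1, Slc4a1 and Epb42), and none was called in any line at either age. The globin genes Hba-a1 and Hbb-b1 and the gene Alas2, of the same list, were not among those tested. The mean of the 3 genes was 4.85 to 5.03 in srKO and 4.76 to 5.13 in WT at 2 weeks, near the 4.62 used as the filter. Of 5 tested mast cell and megakaryocyte genes, 1 was called higher in srKO at 2 weeks, Kit, which spermatogonia also express (0.36, adjusted p = 0.02). The mean of the mast cell and megakaryocyte list was 6.09 to 6.23 in srKO and 5.94 to 6.56 in WT. In prKO at 2 months, where Gata1 was also called, 3 of the 5 were higher, among them the mast cell protease Cpa3 (0.84 ± 0.18, adjusted p = 0.00075) and the platelet factor Pf4 (0.39 ± 0.09, adjusted p = 0.0012), and Kit was lower (-0.69). Without replicate 1 the counts were the same, and Kit was at -0.37 (adjusted p = 0.038). The list mean was 5.72 to 6.07 there, against 5.53 to 5.76 in WT. In srKO at 2 months Pf4 was higher (0.37 ± 0.08, adjusted p = 0.0021), with a list mean of 5.69 to 5.78. The part of these cells in the Gata1 results was not tested.

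Nr0b1, which encodes the orphan nuclear receptor DAX1, a repressor of NR5A1-driven genes in Sertoli, Leydig and adrenal cortex cells, showed the largest difference of the 7 in both prKO and srKO at 2 months. It was at 9.50, 10.25 and 10.07 in prKO, 9.88, 9.76, 9.57 and 9.62 in srKO, 9.32, 9.47, 9.26 and 9.43 in lrKO, and 8.91 to 9.40 in WT (median 9.22). All 3 prKO and all 4 srKO arrays were above every WT array, and so were 2 of 4 lrKO arrays. The difference from WT was 0.75 ± 0.12 in prKO (1.68-fold, limma adjusted p = 5e-05; 0.97 without replicate 1), 0.52 ± 0.11 in srKO (1.43-fold, adjusted p = 0.0016) and 0.18 ± 0.11 in lrKO (adjusted p = 0.71). At 2 weeks it was at 11.09, 11.07, 10.85 and 10.95 in srKO, against 10.51 to 10.87 in WT (median 10.69). There 3 of 4 srKO arrays were above all WT arrays, and the difference of 0.30 ± 0.08 did not pass (adjusted p = 0.074; 0.33, adjusted p = 0.034, without WT replicate 5). The prKO arrays ran from 10.65 to 10.94 (difference 0.14, adjusted p = 0.25) and the lrKO arrays from 10.60 to 10.79 (0.02, adjusted p = 0.93).

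Since Nr0b1 is also an adrenal cortex gene, 4 genes of that tissue are given beside it. Of all genes at 2 months, 26% were called higher in prKO and 14.7% in srKO, and 0.184% passed in either direction in lrKO. In prKO at 2 weeks 10.5% passed in either direction. The 4 adrenal genes were counted in the same comparisons. Of them 3 were called higher in prKO at 2 months, namely Cyp21a1 (3.37 ± 0.29), Mrap (2.59 ± 0.19) and Cyp11b1 (2.00 ± 0.30), with 3.80, 2.93 and 2.60 in the same order without replicate 1, and the list mean was 6.72 to 8.01 there, against 5.26 to 5.64 in WT. In srKO 1 was called higher, Cyp21a1 (1.82 ± 0.26), and the list mean was 5.76 to 6.22. In lrKO Cyp21a1 was also called higher (1.34), and the list mean of 5.73 to 6.00 lay above all WT arrays, while Nr0b1 was not called. At 2 weeks 2 of 4 were called higher in prKO, with a list mean of 6.70 to 7.50 against 5.18 to 5.48 in WT, while Nr0b1 was not called. The part of adrenal-like or Leydig cells in the Nr0b1 result was not tested.

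Promoter sequence was at hand in RefSeq (GRCm38.p6, 250 bases before to 50 after the start site) for 3 of the 7 genes, Sox8, Gata1 and Nr0b1. The promoters of Nr0b1, the factor with the largest differences from WT in prKO and srKO at 2 months, and Gata1, the factor called in srKO at 2 weeks, are printed 5′ to 3′ on the strand of the gene. Both lie on the X chromosome, Nr0b1 at chrX:86191525-86191824 on the plus strand and Gata1 at chrX:7967861-7968160 on the minus strand. Capitals mark the only match found to any of the motifs searched.
Nr0b1: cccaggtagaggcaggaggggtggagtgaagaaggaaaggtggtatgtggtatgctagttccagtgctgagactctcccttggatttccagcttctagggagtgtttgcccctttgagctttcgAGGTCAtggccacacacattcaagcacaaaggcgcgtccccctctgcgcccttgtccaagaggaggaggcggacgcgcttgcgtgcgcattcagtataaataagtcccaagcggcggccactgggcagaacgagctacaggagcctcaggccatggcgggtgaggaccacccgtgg
Gata1: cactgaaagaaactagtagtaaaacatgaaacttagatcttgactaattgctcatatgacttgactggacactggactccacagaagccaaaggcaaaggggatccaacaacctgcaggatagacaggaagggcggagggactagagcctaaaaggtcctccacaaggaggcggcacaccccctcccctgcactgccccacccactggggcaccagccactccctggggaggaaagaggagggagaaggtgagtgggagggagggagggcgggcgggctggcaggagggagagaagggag
The motifs, searched on both strands, were the nuclear receptor half-site AGGTCA, the GATA motif AGATAA (also with T as its first or G as its last letter), the SOX motif AACAAT, the cAMP response element TGACGTCA and its half-site TGACG, which lies within the full element. Nr0b1 held AGGTCA once, 126 bases before the start site, and no other match was found in the 3 promoters. Of 32851 mouse promoters of the same length, 16.3% held AGGTCA, 29.8% a GATA motif, 10.7% AACAAT, 1.79% TGACGTCA and 20.8% TGACG. A match is a description of these letters and no evidence that a factor binds there, and a missing match says only that the letters are not in this window.

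In prKO testes at 2 months 5 of 7 factors were called higher than in WT (Sox9, Wt1, Gata4, Gata1 and Nr0b1) and none lower, in a comparison where 26% of all genes were called higher. The members' median difference was 0.57, against 0.02 over all genes tested. Without replicate 1 the count was 6, with Sox8 added, and over the fits that left out 1 array it was 4 to 6. In srKO at 2 months 2 of 7 were called higher, Gata4 and Nr0b1, where 14.7% of all genes were, with a members' median of 0.22 against 0.03. In lrKO at 2 months 0 of 7 were called, where 0.184% of all genes passed in either direction, and none had an unadjusted limma p below the threshold of 0.05. The limma 95% intervals of lrKO minus WT at that age reached down to -0.34 (Dmrt1) and up to 0.42 (Nr0b1). Differences within the interval of a factor are not excluded.

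At 2 weeks 0 of 7 factors were called in prKO, where 10.5% of all genes passed in either direction, and none had an unadjusted limma p below the threshold of 0.05. In srKO 1 of 7, Gata1, was called higher, where 0.784% of all genes were, and all 7 differences were above 0, with a median of 0.16 against 0.01 over all genes. In lrKO 0 of 7 were called and 0.1% of all genes passed, and Wt1 and Gata1 had an unadjusted limma p below 0.05. The comparisons of the 3 lines share the same WT arrays.

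**Figure D2:**
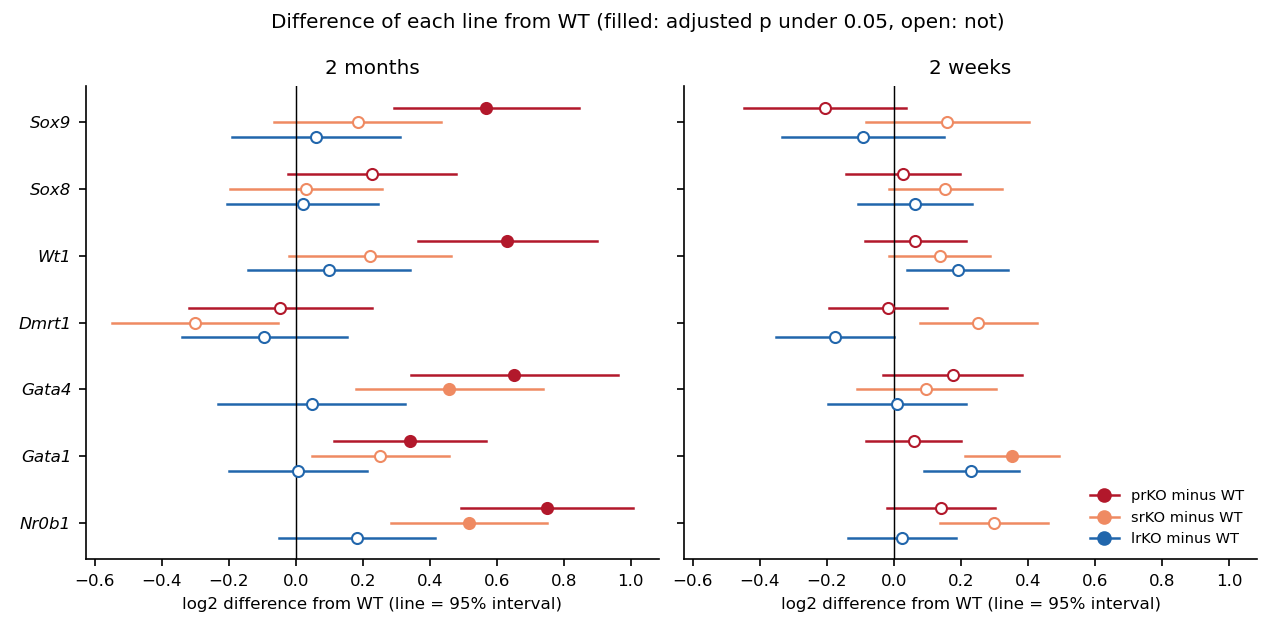
Log2 difference from WT (x axis) of each factor (y axis) in prKO, srKO and lrKO at 2 months (left) and 2 weeks (right), with the 95% interval of the limma fit as a line. Filled points passed an adjusted p of 0.05: 5 in prKO and 2 in srKO at 2 months, and Gata1 in srKO at 2 weeks.

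The lines were also compared with each other. At 2 months prKO exceeded lrKO in 5 of 7 factors (Sox9, Wt1, Gata4, Gata1 and Nr0b1), by 0.33 to 0.60, where 25.4% of all genes were called higher. It exceeded srKO in 1, Wt1 (0.41 ± 0.14, limma adjusted p = 0.043), where 13.4% of all genes were higher. Without prKO replicate 1 the count over srKO was 6, namely Sox9 (0.63), Sox8 (0.43), Wt1 (0.65), Dmrt1 (0.44), Gata4 (0.51) and Nr0b1 (0.45), and it was 0 without prKO replicate 2 or 3 or srKO replicate 3 or 4. The count over lrKO was 6 without prKO replicate 1 and 1 without prKO replicate 3. Between srKO and lrKO at 2 months 0 of 7 passed, where 26.7% of all genes did in either direction; at an unadjusted p under 0.05 there were Gata4 (0.41), Gata1 (0.25) and Nr0b1 (0.33), in each of which all 4 srKO arrays lay above all 4 lrKO arrays.

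At 2 weeks Gata1 was lower in prKO than in srKO (-0.29 ± 0.08, limma adjusted p = 0.019), with all 4 prKO arrays below all 4 srKO arrays. It was the 1 member called lower, where 4.85% of all genes were, and the call was lost without prKO replicate 4 (-0.21, adjusted p = 0.071). It was also lost without srKO replicate 1 (-0.26, adjusted p = 0.062). Dmrt1 was higher in srKO than in lrKO by 0.43 ± 0.10 (adjusted p = 0.029), with all 4 srKO arrays above all 4 lrKO arrays, where 1.54% of all genes were called higher. This call was lost without srKO replicate 1, 2 or 3 or lrKO replicate 1, 3 or 4 (0.36 to 0.46, adjusted p = 0.055 to 0.11). Of 16 spermatogonial genes 5 were called higher and 0 lower in the same comparison. The mean of 14 meiotic prophase genes was lowest in srKO replicate 3 (8.23), where Dmrt1 was at 10.21. It was highest in lrKO replicate 4 (9.36), where Dmrt1 was at 9.43. Other arrays did not keep this order. The list mean was 9.14 in srKO replicate 4, with Dmrt1 at 9.82. It was 9.09 in lrKO replicates 2 and 3, with Dmrt1 at 9.71 and 9.57. The part of germ cell makeup in this Dmrt1 difference was not tested. Between prKO and lrKO 0 of 7 were called, where 16.4% of all genes passed in either direction, and Gata1 had an unadjusted limma p below 0.05.

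Whether a line's difference from WT changed with age was tested in a fit of all 8 groups. In prKO 4 of 7 factors had a higher difference at 2 months than at 2 weeks, where 15.8% of all genes did: Sox9 (0.77 ± 0.18, limma adjusted p = 0.0011), Nr0b1 (0.61 ± 0.14, adjusted p = 0.0013), Wt1 (0.57 ± 0.15, adjusted p = 0.0027) and Gata4 (0.48 ± 0.18, adjusted p = 0.044). The fall with age was thus smaller in prKO than in WT for these 4 genes. Without prKO replicate 1 of 2 months the count was 6, with Sox8 (0.43) and Gata1 (0.48) added. The Gata4 call was lost after quantile normalisation (0.45, adjusted p = 0.067) or median centring (0.41, adjusted p = 0.092), with only the groups compared in the fit (adjusted p = 0.085) and against WT replicates 1 to 4 (adjusted p = 0.086) or 5 to 8 alone (adjusted p = 0.14). It was also lost on leaving out any of 12 single arrays: prKO replicate 2 (0.34) or 3 (0.30, adjusted p = 0.27) or WT replicate 2, 5 or 6 of 2 months (0.45 to 0.47), or prKO replicate 2, 3 or 4 or WT replicate 1, 3, 4 or 5 of 2 weeks (0.45 to 0.47). In lrKO 0 of 7 passed, where 0.1% of all genes did, and none had an unadjusted limma p below 0.05.

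The factors at 2 months were set beside lists of genes for the cell types of the testis. Of all genes tested, 26% were called higher and 22.4% lower in prKO (26.2% and 20.2% without replicate 1). In srKO 14.7% were higher and 10.8% lower, and in lrKO 0.184% passed in either direction. Of 23 tested Sertoli cell products (secreted proteins, receptors and enzymes of these cells), 17 were called higher and 2 lower in prKO, with a median of 0.68, and 12 higher and 2 lower in srKO, with a median of 0.36. Without prKO replicate 1 the prKO counts were 19 and 2, with a median of 0.90. Examples are Inha, the alpha subunit of inhibin (1.39 in prKO, 1.36 in srKO), Kitl, the ligand of the germ cell receptor KIT (1.60 in prKO), and Fshr, the receptor for follicle-stimulating hormone (-1.09 in srKO). Spermatid genes moved the other way, with 12 of 13 lower in prKO (median -1.07) and 9 of 13 lower in srKO (median -1.02). The spermatid list mean was 9.71 to 10.41 in prKO, 9.46 to 10.26 in srKO, 11.08 to 11.17 in lrKO and 10.92 to 11.12 in WT. Macrophage genes were higher in 7 of 7 in prKO and 5 of 7 in srKO, endothelial genes in 7 of 7 and 4 of 7, and peritubular myoid genes in 5 of 6 and 3 of 6. Of 8 Leydig cell genes 4 were higher and 1 lower in both prKO and srKO. Without prKO replicate 1 the counts in prKO were 12 of 13 spermatid genes lower, 7 macrophage, 7 endothelial and 4 myoid genes higher, and 5 Leydig genes higher and 1 lower. In lrKO at that age 1 of 23 Sertoli products was lower, 2 of 8 Leydig genes were lower, 1 adrenal gene was higher, and none of the spermatid, macrophage, endothelial or myoid genes was called. The part of these other cell types in the factors' differences was not tested.

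**Figure D3:**
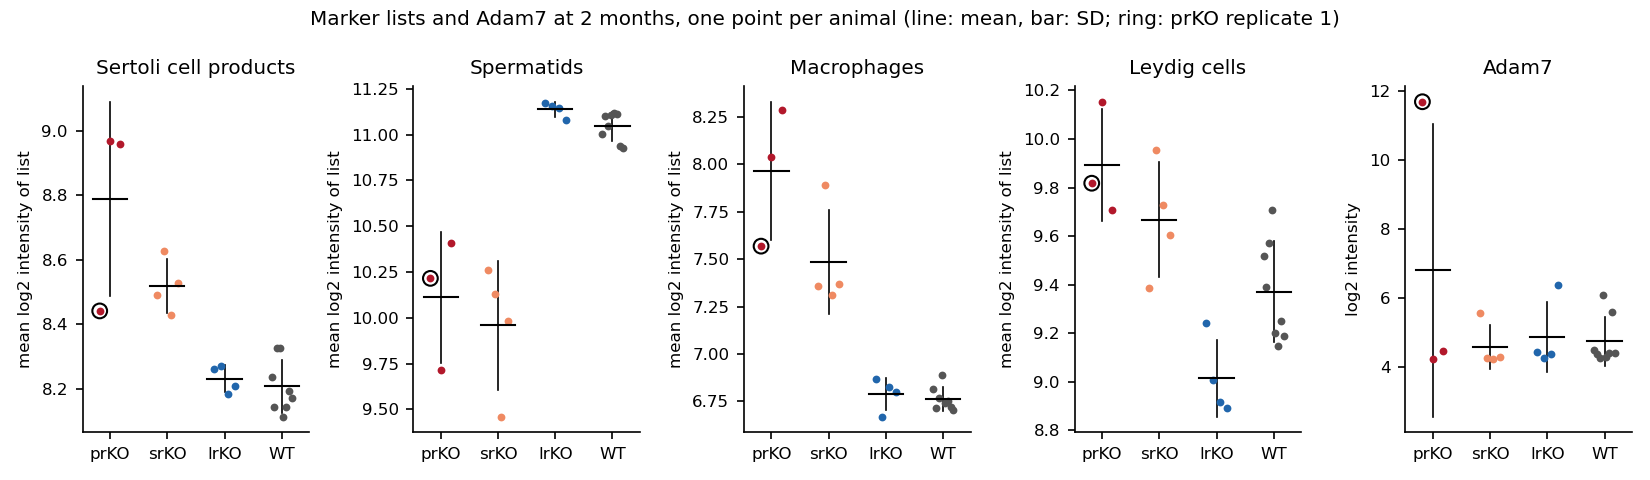
Mean log2 intensity of 4 marker lists and log2 intensity of Adam7 (y axes) in prKO, srKO, lrKO and WT testes at 2 months (x axes), 1 point per animal with mean and SD, and prKO replicate 1 ringed. Spermatid means in prKO and srKO, at or below 10.41, lie below those of all lrKO and WT arrays, while Sertoli product and macrophage means lie above them, and the ringed array is alone in Adam7 at 11.70.

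Each factor was then expressed relative to the mean of the 23 Sertoli cell products on the same array, as a description with no test. At 2 months that mean averaged 8.79 in prKO and 8.52 in srKO, against 8.21 in WT. A factor with an unchanged level therefore reads lower on this scale in prKO and srKO. Before scaling, Dmrt1 differed from WT by -0.05 in prKO and -0.30 in srKO. Relative to the products, Dmrt1 was at -1.18, -1.30 and -1.002 in prKO at 2 months and -0.83, -1.17, -1.24 and -1.33 in srKO. In lrKO it was at -0.78, -0.70, -0.58 and -0.53, and in WT at -0.69 to -0.42. All 3 prKO and all 4 srKO arrays, prKO replicate 1 among them, lay below every WT array, and the group means were -1.16 ± 0.15 in prKO, -1.14 ± 0.22 in srKO and -0.53 ± 0.10 in WT (SD, n = 3, 4 and 8). Sox8 averaged -1.54 ± 0.13 in prKO, -1.46 ± 0.14 in srKO and -1.18 ± 0.14 in WT, with 2 of 3 prKO and 2 of 4 srKO arrays below all WT arrays. Gata1 averaged -1.47 ± 0.08 in prKO and -1.23 ± 0.07 in WT, with 3 of 3 prKO arrays below all WT arrays. Nr0b1 averaged 1.15 ± 0.12 in prKO, 1.19 ± 0.13 in srKO, 1.14 in lrKO and 0.98 ± 0.10 in WT, with 2 of 3 prKO, 4 of 4 srKO and 3 of 4 lrKO arrays above all WT arrays. For Sox9, Wt1 and Gata4 the group means of the lines lay within 0.15 of WT. In prKO they differed from WT by -0.01, 0.05 and 0.07. The Gata4 mean in prKO joined arrays on both sides of WT (SD 0.25). Replicate 1 was at -0.60, below all WT arrays. Replicates 2 and 3 were at -0.21 and -0.13, above all WT arrays (-0.54 to -0.27).

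At 2 weeks the largest differences of group means from WT on this scale were 0.29 for Gata1 in srKO, with 3 of 4 arrays above all WT arrays, and -0.28 for Sox9 in prKO, with 2 of 4 arrays below them. Nr0b1 in srKO was higher by 0.24, with 3 of 4 arrays above all WT arrays, Gata1 in lrKO by 0.22 and Wt1 in lrKO by 0.18, with 2 of 4 each. Dmrt1 differed by 0.19 in srKO, with 2 of 4 arrays above all WT arrays, and by -0.19 in lrKO, with 4 of 4 below them.

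**Figure D4:**
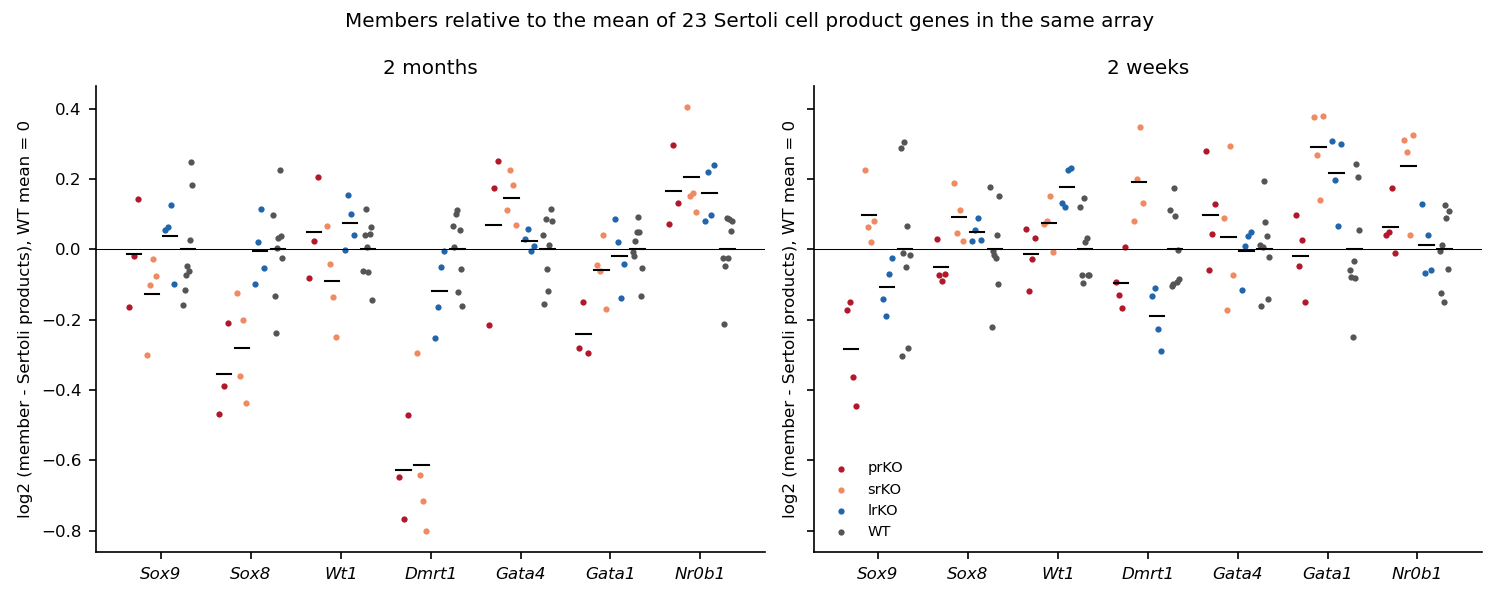
Log2 intensity of each factor minus the mean of 23 Sertoli cell product genes on the same array, with the WT mean of that age set to 0 (y axis), by factor (x axis) and line, at 2 months (left) and 2 weeks (right). Each point is an animal and each line a group mean. At 2 months Dmrt1 in prKO and srKO lies 0.63 and 0.61 below WT, whereas the means of Sox9, Wt1 and Gata4 stay within 0.15 of WT. For Gata4 in prKO at that age, 2 arrays lie above all WT arrays and 1 lies below them. The product mean was itself higher than WT in prKO and srKO, and Dmrt1 before scaling differed by -0.05 and -0.30.

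Genes that act with or before these factors were counted in the same way. Of 21 tested partners and upstream genes of Sertoli cell determination, 6 were called higher and 3 lower in prKO at 2 months, 3 higher and 1 lower in srKO, and 0 in lrKO. These shares are near those of all genes, of which 26% were higher and 22.4% lower in prKO and 14.7% higher and 10.8% lower in srKO; without prKO replicate 1 the prKO counts were 8 and 1. Nr5a1, the nuclear receptor SF1 that works with SOX9, WT1 and GATA4 and whose activity DAX1 represses, was higher in prKO at 2 months (1.35 ± 0.15, limma adjusted p = 5.5e-07; 1.64 without replicate 1) and at 2 weeks (0.91 ± 0.07, adjusted p = 5.1e-08), and in srKO at 2 months (0.65 ± 0.13, adjusted p = 0.0012). Its prKO values at 2 months were 8.10 to 9.14, against 7.23 to 7.40 in WT, with no overlap. Leydig cells express Nr5a1 too. Fgfr2, the receptor through which FGF9 maintains Sox9, was higher in prKO by 2.18 ± 0.20 at 2 months (2.26 without replicate 1) and by 1.52 ± 0.33 at 2 weeks. Zfpm2, the cofactor FOG2 of GATA4, was higher in srKO at 2 months (0.48 ± 0.14, adjusted p = 0.016). Sry, the Y-linked switch of testis fate, was lower in srKO at 2 months (-0.47 ± 0.12, adjusted p = 0.0066). It was also lower in prKO at that age (-0.42, adjusted p = 0.014), a call lost without replicate 1 (-0.35, adjusted p = 0.072). In the same comparisons 9 of 13 spermatid genes were lower in srKO and 12 of 13 in prKO. The part of germ cells in the Sry differences was not tested.

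Genes of the ovarian pathway that DMRT1 and SOX9 oppose were also measured. Of 10 tested, 7 were called higher and 1 lower in prKO at 2 months, with the same counts without replicate 1, and 3 higher and 1 lower in srKO. Of all genes 26% were higher and 22.4% lower in prKO, and 14.7% higher and 10.8% lower in srKO. Wnt4, a signal of the ovarian pathway that other tissues also use, was higher by 1.48 ± 0.14 in prKO (limma adjusted p = 1.3e-07) and by 1.00 ± 0.13 in srKO (adjusted p = 9.6e-06). Runx1, a factor of fetal granulosa cells and of blood cells, was higher by 0.75 ± 0.18 and 0.57 ± 0.16. Amhr2, the receptor for anti-Müllerian hormone, was higher in prKO by 0.68 ± 0.15. Foxl2 (0.22, adjusted p = 0.052) and Esr2 (0.02, adjusted p = 0.9), of the same list, were not called in prKO at 2 months. Neither was called without replicate 1 (adjusted p = 0.12 and 0.26). The gene called lower in prKO was Fshr (-0.68), which is also on the list of Sertoli products. At 2 weeks 2 were higher and 1 lower in prKO (Rspo1, 0.72, Amhr2, 0.38, and Fshr, -0.69), where 10.5% of all genes passed in either direction. In srKO and lrKO 0 passed at that age. All 10 genes of this list were also called lower at 2 months than at 2 weeks in WT testis (median -0.67). Of all genes 55% were called lower with age. The part of cell makeup in the differences of these genes was not tested.

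Across the 19 arrays of 2 months, which share the differences between lines and in cell makeup, most pairs of factors varied together and the pairs with Dmrt1 had the lowest coefficients. As a description, Pearson's r of log2 intensity was highest between Gata4 and Nr0b1 (0.93), and Gata4 had 0.90 with Sox9, with Wt1 and with Gata1. Dmrt1 had 0.06 with Nr0b1, 0.13 with Sox9 and with Gata4, 0.37 with Wt1 and at most 0.54, with Sox8. Over the 20 arrays of 2 weeks the coefficients were lower for most pairs. Sox9 and Sox8 had the highest (0.71), Gata4 and Gata1 the lowest (-0.01), and Dmrt1 had 0.57 with Sox9.

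**Figure D5:**
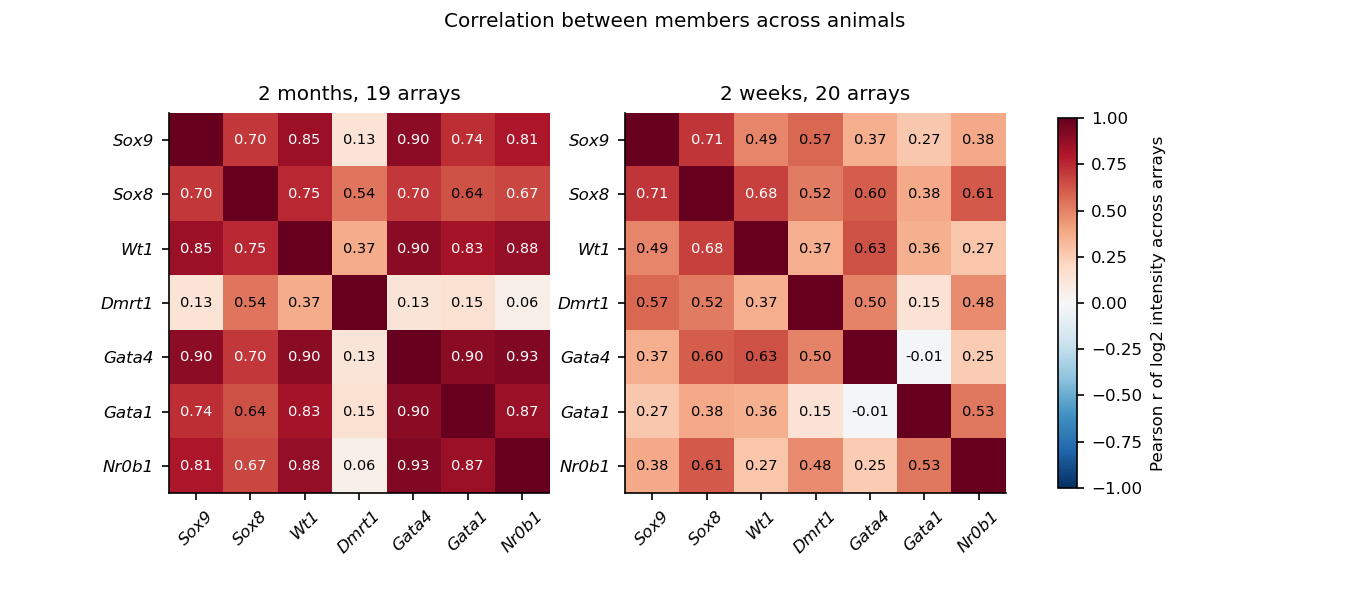
Pearson's r of log2 intensity between each pair of factors across arrays, at 2 months (left, 19 arrays) and 2 weeks (right, 20 arrays), with red for positive values on a scale from -1 to 1. At 2 months the row of Dmrt1 is pale, with values of 0.06 to 0.54, whereas the other pairs lie between 0.64 and 0.93.

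The tested genes most like each factor across the arrays of 2 months are given for their pattern only. For Sox9 these were Ssh1 (r = 0.93), Espn and Dipk2b (both 0.92), for Wt1 Lpar3, Axl and Esyt3 (0.93 to 0.94), and for Gata4 Scrn1, Drp2 and Fstl3 (all 0.96). For Gata1 they were C1rl (0.94), Ttll12 and Fstl3 (both 0.92), and for Nr0b1 Tpd52l1 (0.96), Sat2 and Echs1 (both 0.95). Sox8 had lower values with its nearest genes, Iyd (0.84), Plcd1 (0.84) and Tspan18 (0.83). Dmrt1 was nearest to Rbm28 (0.86), Gpr37 (0.85) and Rhox13 (0.83), and at 2 weeks to Gsr (0.96), Ptpn12 (0.92) and Radx (0.92). Espn is also on the list of Sertoli products, and no gene was among the nearest 3 of the same factor at both ages.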

How the data were processed

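Per the submitters' processing notes the authors normalised the arrays with RMA. The sources used here give no RMA version or settings and no genome build. The deposited values are log2 intensities per probe set for 39 arrays, in 1 table of 41345 probe sets. Groups and replicate numbers came from the titles. The platform annotation gave 1 symbol to 23521 probe sets, several to 1814 and none to 16010; of several for 1 gene, the brightest over all arrays was taken. Genes were tested when a group mean exceeded 4.62, the 25th percentile of all values. At each age the 4 genotypes were fitted in 1 model with limma 3.58.1 in R 4.3.3 (lmFit, eBayes, two-sided), and a model of all 8 groups gave the WT age and between-age contrasts. The p-values were adjusted by Benjamini-Hochberg over the 19007 genes, with a threshold of 0.05. Values after ± are SE unless SD is written, and differences are the first group named minus the second. The code was tested on simulated data. Promoters came from RefSeq (GRCm38.p6).

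The 7 genes and 13 marker lists were chosen with earlier results of these data known. Besides the 7, the text names Prkar1a, up to 3 called genes per list with the largest differences, and the 3 genes most like each factor (passing over clone and model names, small RNA genes and olfactory or vomeronasal receptors). Adam7 was chosen after its values were seen. Titles call the arrays biological replicates; arrays give no read depth, so their number limits the precision. Replicate numbers did not pair the samples. Alternatives were no filter, a filter at the 50th percentile, averaged probe sets, quantile normalisation, median centring, array weights, trend and robust eBayes, other sets of groups, the replicate number as a block, WT replicates 1 to 4 or 5 to 8 alone, and leaving out each array. A fit without the 4 arrays above 6 in Adam7, and the marker lists without prKO replicate 1 of 2 months, were added after the data were seen.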

Additional observations from a re-analysis of the deposited data

Results flagged for a closer look

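Among the 49 gene and group combinations of 4 to 10 arrays, 4 had an array far from the others, and chance flags about 1 in 20 groups. These were Gata4 in srKO replicate 2 at 2 months (8.47, with the next array at 8.23), Sox9 in lrKO replicate 4 at 2 months (8.00, next 8.20), Gata4 in prKO replicate 1 at 2 weeks (9.57, next 9.30) and Gata1 in lrKO replicate 3 at 2 weeks (8.22, next 8.37). The lrKO replicate 4 at 2 months is also an array above 6 in Adam7 (6.40).

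The difference of a line from WT differed between the 2 ages, by the limma contrast of the change at 2 months minus that at 2 weeks, for 4 factors in prKO and 1 in srKO. In prKO this contrast was 0.77 for Sox9, 0.61 for Nr0b1, 0.57 for Wt1 and 0.48 for Gata4, and without prKO replicate 1 of 2 months it was 1.02, 0.83, 0.81 and 0.79 for the same genes. In srKO it was -0.55 for Dmrt1, whose difference from WT was -0.30 at 2 months and 0.25 at 2 weeks. The Sertoli cell products moved in the same contrast in prKO, with 14 of 23 called higher and 1 lower (median 0.59), where 15.8% of all genes were called higher.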

How the results depend on the processing

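No member's called difference changed sign under any alternative, and 77 of 2751 recomputed differences had the other sign with neither value called. The falls with age in WT (7) and the srKO between-age call of Dmrt1 (1) kept their counts throughout, and prKO minus WT at 2 weeks, prKO minus lrKO at 2 weeks, both lrKO comparisons with WT and the lrKO between-age contrast gave 0 throughout. Other counts of members called moved as follows. For srKO minus WT at 2 weeks (1 as reported) array weights gave 4, trend and robust settings 2 and WT replicates 5 to 8 alone 0. For prKO minus WT at 2 months (5) WT replicates 1 to 4 alone gave 4 and leaving out the arrays above 6 in Adam7 6. For srKO minus WT at 2 months (2) array weights and all 8 groups gave 4, and quantile normalisation, only the groups compared and leaving out the arrays above 6 in Adam7 3 each. For prKO minus srKO at 2 weeks (1) array weights gave 3 and only the groups compared 0; for srKO minus lrKO at 2 weeks (1) array weights gave 2. For prKO minus srKO at 2 months (1) quantile normalisation gave 2, median centring and only the groups compared 0, and leaving out the arrays above 6 in Adam7 6. For prKO minus lrKO at 2 months (5) only the groups compared gave 2, quantile normalisation and median centring 4 each, and leaving out the arrays above 6 in Adam7 6. For srKO minus lrKO at 2 months (0) the filter at the 50th percentile gave 1, array weights 3, and only the groups compared, all 8 groups and leaving out the arrays above 6 in Adam7 2 each. Leaving out 1 array gave 0 to 2 for srKO minus WT and prKO minus srKO at 2 weeks, 0 to 1 for srKO minus lrKO at 2 weeks, and at 2 months 4 to 6 for prKO minus WT, 1 to 3 for srKO minus WT, 0 to 6 for prKO minus srKO and 1 to 6 for prKO minus lrKO. For the prKO between-age contrast (4) it gave 3 to 6, and quantile normalisation, median centring, only the groups compared and WT replicates 1 to 4 or 5 to 8 alone gave 3 each, without Gata4, and leaving out the arrays above 6 in Adam7 6. The cause was not tested.

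Same-numbered arrays of a line and WT did not deviate together: 4 of 23 pairs had a correlation over 0.1 (range -0.62 to 0.34), and in 1 of 23 the same number was the best match. With the replicate block, srKO minus WT at 2 months gave 1 member called (Gata4 was lost, adjusted p = 0.1), prKO minus srKO at 2 months 0, prKO minus WT at 2 months 4, prKO minus lrKO at 2 months 4 and the prKO between-age contrast 3. The groups of 3 or 4 animals per line limit what could be called.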

Other observations

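Other gene groups were counted without bearing on 1 factor. At 2 months 8 of 14 tested meiotic prophase genes were lower in prKO (median -0.43), where 22.4% of all genes were. In srKO 2 were higher and 1 lower (median 0.08), near the shares of all genes, 14.7% higher and 10.8% lower. Of 16 spermatogonial genes 4 were called higher and 7 lower in prKO at that age. Zbtb16, the stem cell factor PLZF, was higher (0.98 ± 0.10, limma adjusted p = 2.9e-07), and Kit (-0.69) and Sohlh2 (-0.56), genes of differentiating spermatogonia, were lower. Sall4 and Nanos3 (both -0.48) and Id4 (-0.22) were also lower, and Nanos2 (-0.15) was not called. Gfra1 (0.39) and Ret (0.51) were higher. The calls of Gfra1, Ret and Id4 were lost without prKO replicate 1 (0.11, 0.33 and -0.16). Without prKO replicate 1 the meiotic count was 8 too, and the differences were 1.02 for Zbtb16, -0.37 for Kit and -0.73 for Sohlh2. At 2 weeks Kit (0.36) and Uchl1 (0.35) were higher in srKO, where Dmrt1 had 0.25.

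In prKO at 2 weeks no factor was called, and 10.5% of all genes passed in either direction. There 5 of 8 Leydig genes (median 1.28), 4 of 7 endothelial genes (median 0.40) and 3 of 7 macrophage genes (median 0.35) were higher. Of 23 Sertoli products 5 were higher and 3 lower, Il1a among those higher (1.26 ± 0.14). In lrKO at 2 months the Leydig enzymes Hsd3b6 (-1.59) and Hsd17b3 (-1.35) were lower, and Cyp21a1 was higher (1.34).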
